A study of Mus musculus with 96 samples.

Results

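*Hox* genes encode transcription factors that carry a homeodomain, the DNA-binding fold encoded by the homeobox. They were taken as every gene symbol made of Hox, a cluster letter from a to d and a number, which gave 39 of the 41575 symbols in the count table. Bulk RNA was measured by MuSeq in 16 tissues of 3-week-old mice of 2 genotypes, WT and *Scx*-/-, with 3 libraries per tissue and genotype and 96 libraries in all. *Scx* encodes Scleraxis, a transcription factor of tendon progenitors, and the knockout covers the whole body, so no tissue of these mice serves as an unaffected internal control. The part of *Scx* that the allele lacks, the sex of the mice, which libraries came from 1 mouse, and the body site of the muscle, bone, cartilage and vascular samples were not stated in the sources used. Because the labels do not say that the 3 libraries of a group came from separate mice, *p*-values measure the spread between libraries.

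In mammals, *Hox* genes lie in clusters on different chromosomes, and genes at the same place in different clusters form a paralog group. During development, low-numbered groups are switched on early and toward the head and high-numbered groups later and toward the tail, so that the combination of active members gives cells an address along the body and limb axes. Much of this address is kept after birth, above all in the mesenchyme, smooth muscle and skeleton of each region. The 39 genes fell into cluster A with 11 genes (chr6:52155590-52260880), cluster B with 10 (chr11:96194316-96368256), cluster C with 9 (chr15:102921103-103036852) and cluster D with 9 (chr2:74668310-74765142). Coordinates are those of GRCm38 (mm10).

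The homeobox of all 39 genes was found in the GENCODE M21 transcripts. Those of 5 genes on which the comparisons below turn are given 5′ to 3′, with capitals for the 51 bases that encode residues 42 to 58 of the homeodomain, the recognition helix that enters the major groove of DNA. They show a gene of the middle groups of clusters A and D, a gene of group 10, and 2 genes of group 13. *Hoxa5* lies at chr6:52201754-52204587 on the minus strand. *Hoxd8* (chr2:74704615-74707933), *Hoxc10* (chr15:102966796-102971893), *Hoxb13* (chr11:96194316-96197447) and *Hoxd13* (chr2:74668310-74671599) lie on the plus strand.
Hoxa5: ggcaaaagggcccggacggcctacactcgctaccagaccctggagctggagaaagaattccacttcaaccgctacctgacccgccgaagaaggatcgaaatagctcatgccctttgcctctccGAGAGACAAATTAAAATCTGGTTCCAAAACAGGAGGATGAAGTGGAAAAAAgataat
Hoxd8: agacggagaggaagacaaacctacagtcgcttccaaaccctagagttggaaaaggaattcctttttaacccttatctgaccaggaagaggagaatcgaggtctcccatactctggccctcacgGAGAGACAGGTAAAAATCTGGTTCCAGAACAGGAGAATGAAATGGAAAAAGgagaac
Hoxc10: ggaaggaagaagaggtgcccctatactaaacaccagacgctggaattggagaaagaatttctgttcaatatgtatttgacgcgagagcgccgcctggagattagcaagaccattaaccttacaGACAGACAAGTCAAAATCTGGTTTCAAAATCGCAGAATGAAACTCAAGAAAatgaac
Hoxb13: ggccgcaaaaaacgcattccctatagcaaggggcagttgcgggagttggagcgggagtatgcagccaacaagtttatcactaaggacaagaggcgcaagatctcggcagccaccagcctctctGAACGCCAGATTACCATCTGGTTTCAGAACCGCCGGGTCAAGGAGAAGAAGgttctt
Hoxd13: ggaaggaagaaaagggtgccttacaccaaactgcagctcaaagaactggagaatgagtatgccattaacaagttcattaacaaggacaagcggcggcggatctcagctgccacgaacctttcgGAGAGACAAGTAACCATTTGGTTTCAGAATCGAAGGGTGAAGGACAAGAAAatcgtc

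The homeoboxes of *Hoxb13* and *Hoxd13*, which lie on different chromosomes, shared 67.2% of their 180 bases and 78.3% of the encoded residues. *Hoxb13* shared 50% of its homeobox bases with *Hoxd8* and 52.2% with *Hoxc10*. Over all pairs of the 39 genes the share ran from 46.1% to 93.9%. Only 4 pairs shared a run of 50 identical bases anywhere in their transcripts, namely *Hoxa6* with *Hoxb4*, *Hoxb9* with *Hoxc9*, *Hoxc10* with *Hoxc5*, and *Hoxd3* with *Hoxd4*. Reads of the last 2 pairs can be split or lost in counting, because *Hoxc10* and *Hoxc5* overlap over 8.7% and 5.4% of their exonic bases and 62.8% and 52.3% of those of *Hoxd3* and *Hoxd4* lie in exons of other genes. In all, 16 of the 39 genes had exonic bases in common with another gene, and the strand setting of the counting is not given in the sources used here. *Hoxa5*, *Hoxd8*, *Hoxb13* and *Hoxd13* had none.

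The libraries held 11244 to 1658192 counts (median 251640), and 8 of them fewer than 50000. *Scx* had 80 counts in 12 of 48 WT libraries and 9 counts in 1 of 48 *Scx*-/- libraries. The latter is the cartilage library labelled *Scx*-/- replicate 1 (37.2 CPM of *Scx*, against 0, 28.2 and 3.63 CPM in WT cartilage). Its *Scx* counts go against its label, but counts from a part of the gene that the allele keeps would not, so they do not settle it, and the *Hoxa5* values that rest on it are also given without it. Marker genes of the labelled tissue were highest in that tissue for 14 of 16 tissues. For cartilage the margin was small, with chondrocyte markers at 0.615% of its counts and 0.586% of those of bone. The libraries of these 2 tissues overlapped (0.195% to 1.32% and 0.405% to 0.764%). The samples labelled adipose ranked 12 of 16 for adipocyte markers and gave 30.3% of their counts to 5 pancreatic acinar genes, and the vascular samples ranked 2 for vessel wall markers but first for adipocyte markers (9153 CPM) and for brown adipocyte markers (0.801% of their counts). The study read brown fat genes in its vascular samples as contamination and left that tissue out of its comparison of genotypes. Vascular samples are kept in the values and tests below. Genes of skeletal muscle took 18.3% of the counts in muscle, 9.50% in cartilage and 3.68% in bone. The rectum libraries of *Scx*-/- mice stood apart from those of WT mice, with 4398 to 14166 CPM (counts per 1000000 counts of the library) for 5 genes of stratified epithelium against 12.03 to 27.6 CPM in WT. In these bulk samples, fewer cells of a type and less RNA per cell cannot be told apart.

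*Hox* transcripts were rare, with 7708 of 33623569 counts or 229 CPM, and they were most abundant in rectum and kidney. Summed over the 39 genes, the libraries of rectum ranged from 534 to 1964 CPM (median 1425) and those of kidney from 759 to 998 CPM (median 852). Bladder followed with 235 to 531 CPM (median 396) and muscle with 99.1 to 526.2 CPM (median 296). Kidney did not overlap with bladder or muscle, whereas rectum overlapped with kidney and bladder with muscle, and on TMM-scaled totals muscle (412 CPM of summed counts) lay above bladder (335 CPM). Medians lay at 223 CPM in lung, 210 in cartilage, 201 in vascular, 163 in bone, 89.8 in stomach, 35.0 in intestine and 18.2 in spleen, and these neighbours overlapped from one to the next. Heart, liver, cortex and adipose had medians of 11.6 CPM or less. Hippocampus had 0 *Hox* counts of 1696625, which allows up to 1.77 CPM for a gene over its 6 libraries.

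**Figure D1:**
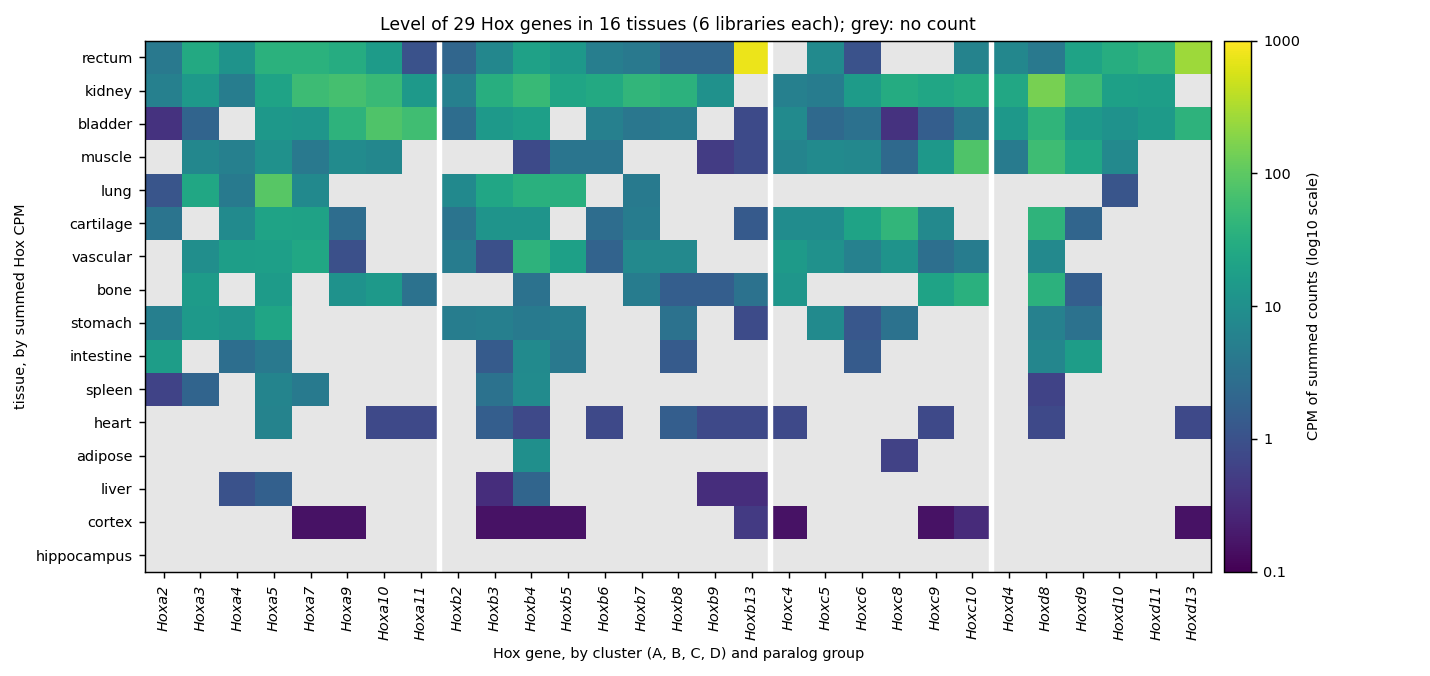
Level of the 29 *Hox* genes with at least 20 counts in all (columns, by cluster and paralog group) in 16 tissues (rows, in order of summed *Hox* CPM over the 39 genes), as CPM of the 6 summed libraries on a log10 colour scale, with grey for no count. The brightest cell is *Hoxb13* in rectum at 769 CPM, and hippocampus is grey throughout.

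Counts were found for 34 of the 39 genes. *Hoxa13*, *Hoxb1*, *Hoxc11*, *Hoxc12* and *Hoxd1* were at 0 in all 96 libraries, and 5 members had between 1 and 17 counts in all. The other 29 included 26 with at least 100 counts. Kidney had counts for 29 genes, rectum for 28, bladder for 26, muscle for 21 and vascular for 20. Kidney was the tissue with the highest CPM for 14 genes, against 7 for rectum and 4 for lung. Of the 624 combinations of a gene and a tissue, 240 had a count and 121 had at least 10. Among these 121 only 25 had a count in all 6 libraries, and in 57 more than 50% of the counts came from 1 library. The 12 counts of *Hoxa2* in intestine, for example, all came from WT replicate 3, and the 12 of *Hoxd9* there all from WT replicate 2. A single count is worth 0.603 to 88.9 CPM depending on the depth of the library.

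The tissues differed in which paralog groups they used. Groups 9 to 13, those of the lumbar, sacral and caudal body and the distal limb, made up 86.3% of the *Hox* counts of rectum (35.7% to 94.1% over the 6 libraries), 64.2% in bladder (51.5% to 78.2%), 53.6% in muscle (38.3% to 87.5%), 49.6% in bone (35.5% to 69.2% over the libraries with a count) and 34.0% in kidney (26.8% to 43.5%). In cartilage, stomach, vascular and lung they made up 6.13%, 4.42%, 4.09% and 0.930%. Groups 1 to 4, those of the hindbrain, neck and pharyngeal arches, were 47.0% of the *Hox* counts in stomach and 41.9% and 41.8% in lung and vascular, but 5.70% in rectum. Cartilage drew 72.7% from groups 5 to 8, the genes of the neck base and thorax. The exact binomial 95% intervals of the share of groups 9 to 13 were 84.3% to 88.1% in rectum and 0.113% to 3.32% in lung, and like all intervals and floors here they cover counting error only. Averaged over counts, the paralog group number was 11.6 in rectum, 8.79 in bladder, 8.15 in muscle, 7.74 in bone and 7.36 in kidney. It was 6.39 in cartilage, 5.36 in vascular, 4.69 in stomach and 4.41 in lung. The value of intestine, 5.27, rests on 48 *Hox* counts, and 12 of these were *Hoxd9* counts of WT replicate 2 alone, so its place in this order is not firm. The spread of this number between libraries was not computed.

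**Figure D2:**
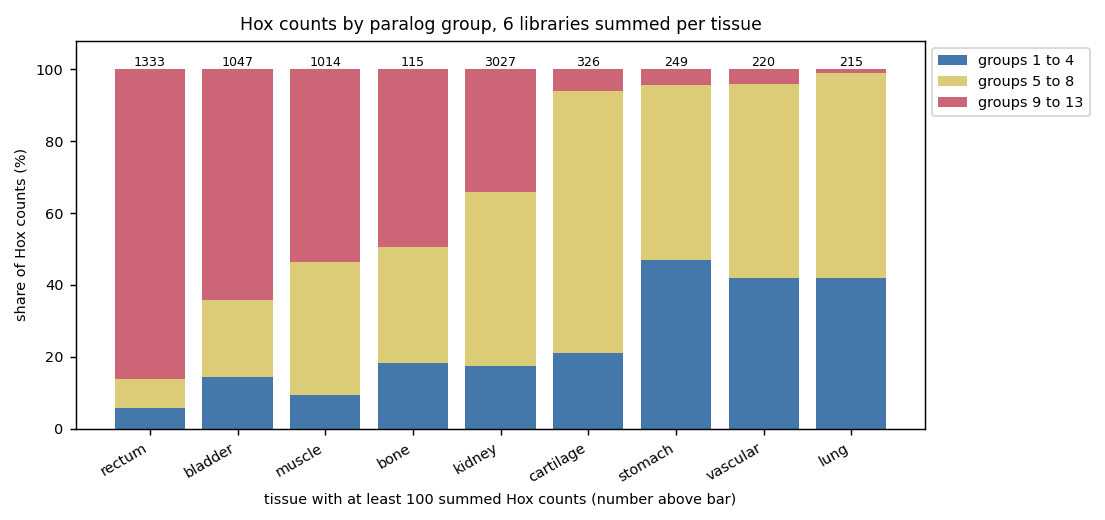
Share of *Hox* counts (percent, 6 libraries summed) that fell to paralog groups 1 to 4, 5 to 8 and 9 to 13 in the 9 tissues with at least 100 *Hox* counts, with the number of counts above each bar. The share of groups 9 to 13 falls from 86.3% in rectum to 0.930% in lung.

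The level of 26 of the 34 genes tested (76.5%) differed between the 16 tissues by edgeR's quasi-likelihood *F* test with genotype as a covariate and a Benjamini-Hochberg adjusted *p* under 0.05, against 53.9% of all 22493 genes tested. The lowest adjusted *p* were those of *Hoxb13* (4.91e-94), *Hoxd8* (1.13e-42), *Hoxd13* (1.46e-38), *Hoxc10* (1.06e-31) and *Hoxa10* (5.13e-25). The 8 genes that did not pass were *Hoxb9* (adjusted *p* = 0.0591), *Hoxa2*, *Hoxb2* and the 5 members with fewer than 20 counts. The members are described below from the tail end of the clusters to the head end.

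*Hoxb13*, the last gene of cluster B and a gene of the caudal trunk, hindgut and prostate, was close to a rectal gene in these tissues. Its 3 WT rectum libraries held 1200, 1058 and 643 CPM and the 3 *Scx*-/- libraries 12.7, 308 and 943 CPM, with a mean of 694 ± 462 CPM (SD, n = 6). Outside rectum, 16 counts were spread over 13 of 90 libraries in 8 tissues, with at most 2 in 1 library. Rectum thus held 98.9% of the summed CPM of *Hoxb13*, and its lowest library lay among the few libraries of other tissues with a single count. *Hoxd13*, the last gene of cluster D, which shapes digits, external genitalia and the anal sphincter, had 255 counts in rectum, 98 in bladder, 1 in heart, 1 in cortex and 0 in the other 12 tissues. In rectum it was at 395, 204 and 40.2 CPM in WT and at 0, 69.3 and 427 CPM in *Scx*-/- libraries, and in bladder at 17.0, 48.2 and 34.3 CPM in WT and at 96.9, 15.6 and 4.12 CPM in *Scx*-/- libraries. The genotypes overlapped in both tissues. *Hoxa13*, the third gene of group 13 with a role in hindgut and bladder, had no count in any library, and *Hoxc13*, a gene of hair and nails, had 9 counts in all, 3 of them in rectum.

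**Figure D3:**
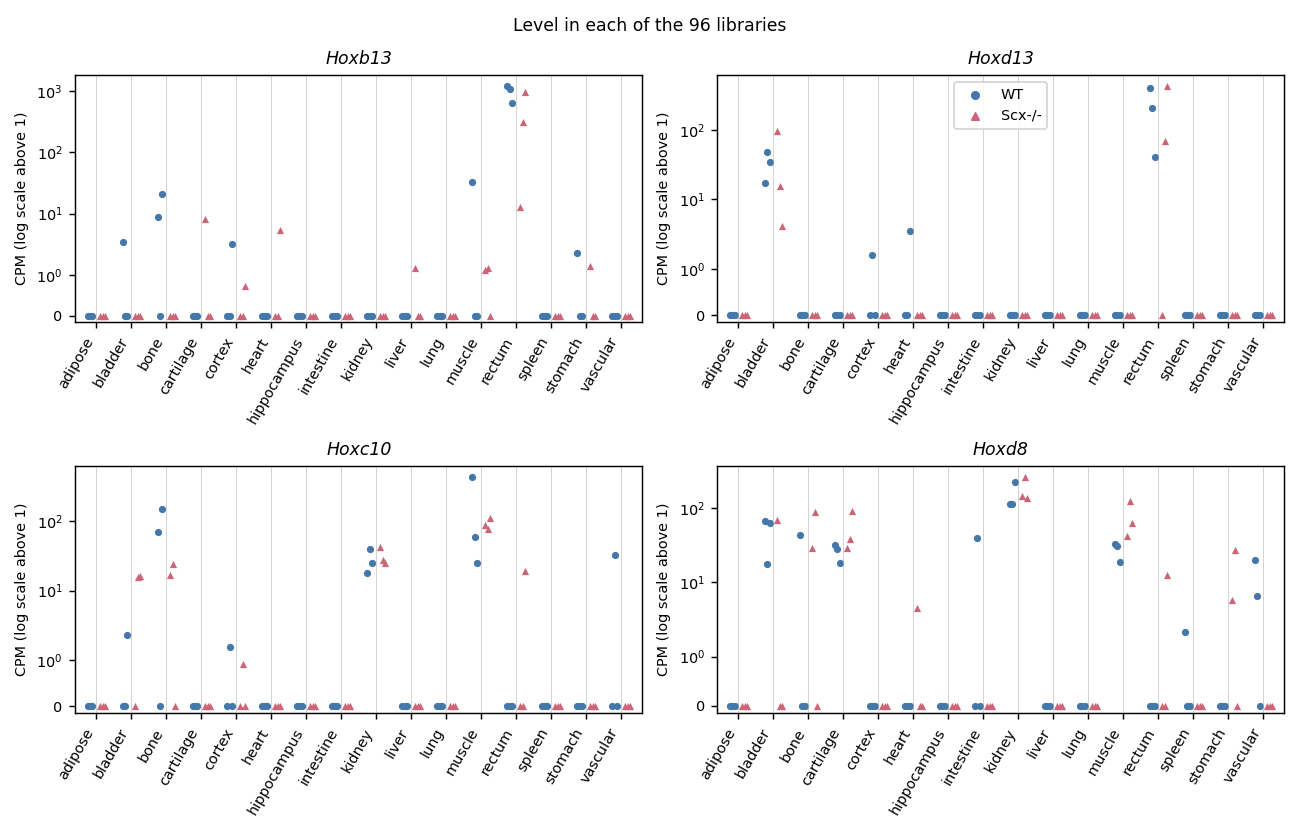
CPM (log scale above 1) of *Hoxb13*, *Hoxd13*, *Hoxc10* and *Hoxd8* in each of the 96 libraries, by tissue, with circles for WT and triangles for *Scx*-/- libraries. *Hoxb13* rises above 100 CPM in 5 of 6 rectum libraries and in no other tissue, *Hoxd13* has counts in rectum and bladder and 1 count each in heart and cortex, *Hoxc10* has a count in all 6 muscle and all 6 kidney libraries, and *Hoxd8* is highest in kidney.

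Among the genes of groups 9 to 11, bladder and kidney were the main tissues. *Hoxa10* and *Hoxa11*, known for the female reproductive tract and, for group 11, the early kidney and the forearm, were the 2 most abundant members in bladder by counts and also per kb of exonic sequence (24.6 and 25.9 CPM per kb). *Hoxa10* ranged from 49.3 to 116 CPM in bladder (median 76.6) and from 31.5 to 84.9 CPM in kidney (median 52.6), which overlapped. *Hoxa11* ranged from 28.1 to 75.5 CPM in bladder (median 62.7) and from 0 to 47.6 CPM in kidney (median 6.36), and 35.0% of its exonic bases are shared with the antisense gene *Hoxa11os*. *Hoxa9* and *Hoxd9*, genes of the lumbar region, were highest in kidney, with medians of 66.8 and 64.6 CPM and all 6 libraries of each above 20 CPM. In rectum, *Hoxd11* had 39 counts and *Hoxd10* 30 counts in 5 and 4 libraries, and the highest library of each held 161 and 204 CPM. These 2 genes of cluster D, which pattern the forearm and lumbar motor neurons, were thus seen in the rectum at 40.0 and 30.8 CPM of summed counts.

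*Hoxc10*, a gene of the lumbar spine and hindlimb, was the most abundant member in muscle. The muscle libraries held 428, 59.7 and 25.3 CPM in WT and 89.0, 77.7 and 110 CPM in *Scx*-/- mice, the first of them from a library of 30409 counts. All 6 lay above 0, and so did all 6 kidney libraries, while cartilage, heart, lung, stomach, intestine, spleen, liver, adipose and hippocampus had no count. Bone, with 115 *Hox* counts in all, had 22 of *Hoxc10* in 4 libraries. Per kb, the muscle samples were led by *Hoxc10* (41.7 CPM per kb), *Hoxd8* (21.1) and *Hoxd9* (10.8), and the bone samples by *Hoxc10* (18.3) and *Hoxd8* (13.3). Levels per kb assume even coverage of the exons, whereas the study's text describes the libraries as enriched for 3′ ends and the record of the series as based on Smart-seq2.

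In the middle of the clusters, *Hoxd8*, a gene of the thorax and upper lumbar region, was the most abundant member in kidney and bone and the second in muscle and cartilage by counts. It ranged from 112 to 261 CPM in kidney (median 141), from 19.0 to 126 CPM in muscle (median 37.2), from 18.1 to 90.6 CPM in cartilage (median 30.5) and from 0 to 70.3 CPM in bladder (median 40.9). Kidney overlapped with muscle through 1 *Scx*-/- muscle library, and muscle, cartilage and bladder overlapped with each other. *Hoxb5*, *Hoxb6*, *Hoxb7*, *Hoxb8* and *Hoxb9*, neighbours in cluster B, were measured together in kidney, at 22.3, 27.4, 43.0, 37.1 and 10.6 CPM of summed counts. Of these 5, *Hoxb6*, *Hoxb7*, *Hoxb8* and *Hoxb9* had their highest level there, and *Hoxb5* was highest in lung. *Hoxc8* and *Hoxc6*, genes of the thorax and of the forelimb level, were among the most abundant in cartilage with *Hoxd8* and *Hoxa5*, with 4.59 to 92.5 CPM (median 43.5) and 0 to 44.4 CPM (median 16.4).

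Toward the head end, *Hoxa5*, which is needed for lung and trachea and for the neck-to-thorax border of the spine, had the most counts of all members in lung, stomach and heart. In heart these were 8 counts, all in WT replicate 3, and in lung 67 of 82 came from WT replicate 1, without which *Hoxa5* had 27.0 CPM of summed counts there and *Hoxb4* 43.2 CPM. The lung libraries held 196, 0 and 18.8 CPM of it in WT and 66.1, 13.2 and 28.0 CPM in *Scx*-/- mice, and the stomach libraries 0, 0 and 109 CPM in WT and 22.9, 18.8 and 0 CPM in *Scx*-/- mice. Both tissues thus contained libraries with none of it, and they overlapped. *Hoxb4*, known for its effect on blood stem cells, was the first in vascular (40 counts, 38.2 CPM) and spleen (13 counts, 8.39 CPM), and the second in lung (31 counts, 34.5 CPM). *Hoxa3*, a gene of pharyngeal pouch organs such as the thymus, had 22 counts in lung and 35 in stomach, *Hoxb5*, which acts in foregut mesenchyme, had 30 in lung and 20 in vascular, *Hoxb3* had 21 in lung, *Hoxa4* had 29 in stomach and 18 in vascular, and *Hoxa7* had 25 in vascular. None of these had a count in all 6 libraries of these tissues. Of the anterior members *Hoxa2*, the gene of the second pharyngeal arch, had at most 20 counts in a tissue.

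The brain samples were the low end of the series. Cortex, the deepest tissue with 6324607 counts, had 17 *Hox* counts over 12 genes, and no library held more than 2 counts of any 1 gene. Group 13 held 7 of them, 3 of *Hoxb13*, 3 of *Hoxc13* and 1 of *Hoxd13*, and no other group more than 2. Forebrain lies ahead of the domain in which *Hox* genes are active.

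Differences between neighbouring organs were then tested in 8 pairs of tissues, each by edgeR's quasi-likelihood test on 12 libraries with genotype as a covariate. In all, 22 of 194 *Hox* tests passed an adjusted *p* under 0.05, for 16 different genes. Along the gut, rectum exceeded stomach in 6 of 30 *Hox* genes tested and was lower in none, where 3.5% of all genes differed and 1.33% were higher in rectum. *Hoxb13* was 945-fold higher (95% counting interval 261 to 7818) with a log2 fold change of 8.58 ± 0.66 (SE, adjusted *p* = 1.65e-35), and its libraries did not overlap between these tissues. *Hoxd13* was at 0 in all stomach libraries and at least 215-fold higher in rectum, measured against a floor of 3 counts over the 6 libraries (log2 fold change 8.47 ± 1.11, adjusted *p* = 6.50e-12). *Hoxd11*, *Hoxa7*, *Hoxd10* and *Hoxa9*, none of which had a count in stomach, were at least 32.8-, 29.4-, 25.2- and 24.4-fold higher, each with 1 or 2 rectum libraries at 0. Between rectum and intestine 2 of 29 genes passed (2.78% of all genes), both higher in rectum (1.37% of all genes), namely *Hoxb13* (at least 184-fold, adjusted *p* = 6.04e-13) and *Hoxd13* (at least 62.8-fold, adjusted *p* = 7.94e-05). With the *Scx*-/- libraries left out, a fit added after the data were seen, the log2 fold change of *Hoxb13* was 8.84 ± 0.82 against stomach and 10.06 ± 1.14 against intestine, and that of *Hoxd13* was 8.33 ± 1.66 and 7.99 ± 1.99, all with an adjusted *p* of 0.00467 or less. With the WT libraries left out, *Hoxd13* no longer passed against intestine (7.54, adjusted *p* = 0.200), while it passed against stomach (8.60 ± 1.52) and *Hoxb13* passed against both (8.30 ± 0.94 and 8.86 ± 2.11). The other 4 genes called against stomach passed in neither genotype alone, with a lowest adjusted *p* of 0.0580, that of *Hoxd10* in WT. Between intestine and stomach 0 of 17 genes passed (6.01% of all genes). There, 3 of 17 had an unadjusted *p* under 0.05 (18.4% of all genes) and DESeq2 also called 0.

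Bladder and kidney differed in 10 of 31 *Hox* genes, where 15.7% of all genes differed. Higher in bladder, as were 7.27% of all genes, were *Hoxd13*, which kidney lacked (at least 45.7-fold, log2 fold change 7.12 ± 1.497, adjusted *p* = 3.16e-05, and 0.0573 in *Scx*-/- libraries alone), and *Hoxa11* (4.01-fold, 2.27 ± 0.83, adjusted *p* = 0.0404). Higher in kidney were 8 genes (8.4% of all genes). *Hoxb5* was at 0 in bladder and between 4.55 and 51.4 CPM in kidney (at least 19.1-fold, log2 fold change -6.58 ± 1.65, adjusted *p* = 0.000773). *Hoxc8* had 1 count in bladder and 105 in kidney (75.1-fold, 95% counting interval 13.2 to 2993), and *Hoxb9* had 0 and 38 counts (at least 9.06-fold). For *Hoxd8* the fold was smaller and the separation complete, with every kidney library above every bladder library (3.72-fold, log2 fold change -2.28 ± 0.43, adjusted *p* = 2.33e-06). *Hoxc9*, *Hoxb7*, *Hoxb8* and *Hoxd9* were also higher in kidney, with log2 fold changes from -3.93 to -2.43. The genes higher in bladder were of groups 11 and 13 and those higher in kidney of groups 5 to 9, but this order was not tested. In fits within 1 genotype, added after the data were seen, *Hoxa11*, *Hoxb5* and *Hoxb9* passed in neither (adjusted *p* = 0.173, 0.0546 and 0.325 in WT and 0.339, 0.0988 and 0.201 in *Scx*-/-), *Hoxc10* of group 10 was also higher in kidney in WT (-5.15 ± 1.79, adjusted *p* = 0.0330), and of the 10 genes only *Hoxd8* passed in *Scx*-/- libraries alone.

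Of the musculoskeletal pairs, muscle exceeded heart in 3 of 25 *Hox* genes (3.94% of all genes differed and 2.28% were higher in muscle). These were *Hoxc10* (at least 34.4-fold, log2 fold change 8.47 ± 1.28, adjusted *p* = 5.66e-09), *Hoxd8* (75.0-fold, 95% counting interval 13.3 to 2975, adjusted *p* = 0.000201) and *Hoxd9* (at least 9.98-fold, adjusted *p* = 0.0153). Between cartilage and muscle, 1 of 25 genes passed (1.61% of all genes, 0.521% lower in cartilage), *Hoxc10*, which was at 0 in all cartilage libraries and at least 38.9-fold lower there (log2 fold change -8.52 ± 1.26, adjusted *p* = 4.87e-09). Markers of skeletal muscle took 9.50% of the cartilage counts, and *Hoxc10* had no count there. *Hoxc10* passed in both pairs within WT and within *Scx*-/- libraries alone, whereas in muscle and heart *Hoxd8* passed in *Scx*-/- libraries only (adjusted *p* = 0.435 in WT) and *Hoxd9* in neither (0.567 and 0.159). Bone and cartilage (0 of 25, 1.2% of all genes) and hippocampus and cortex (0 of 12, 0.936%) showed no *Hox* gene past the threshold. In the former 9 of 25 genes had an unadjusted *p* under 0.05 (11% of all genes) and DESeq2 called 1, and in the latter (10.4% of all genes) both counts were 0. With 0 *Hox* counts in hippocampus and 17 over 12 genes in cortex, this last pair had too few counts to show a difference.

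**Figure D4:**
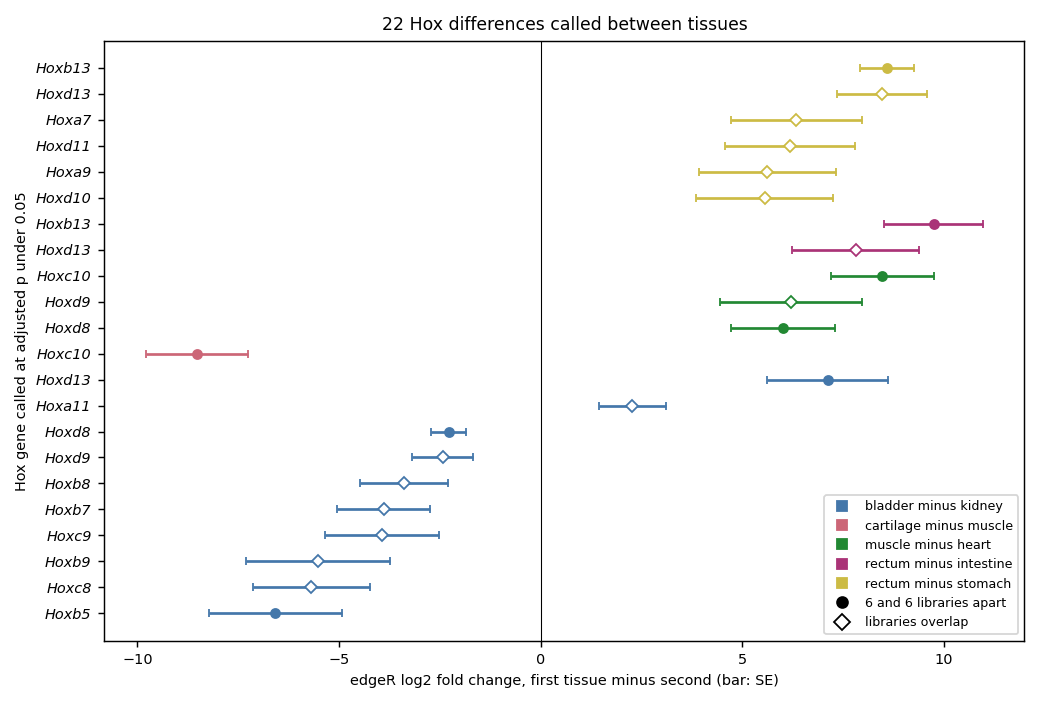
The 22 *Hox* differences with an adjusted *p* under 0.05 as edgeR log2 fold changes (first tissue minus second, bars 1 SE), coloured by pair, with filled circles where the 6 libraries of one tissue did not overlap with the 6 of the other. In bladder minus kidney, 2 genes lie above 0 and 8 below, and the log2 fold changes of *Hoxb13* in rectum are 8.58 and 9.74.

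Of the 22 differences, 14 kept an adjusted *p* under 0.05 whichever library was left out, and 8 lost it. The 14 included *Hoxb13*, *Hoxd13*, *Hoxc10* and *Hoxd8* in each pair named above. *Hoxc9* and *Hoxa11* in bladder and kidney and *Hoxa9* and *Hoxd10* in rectum and stomach were lost without any of 7 to 9 libraries. *Hoxc8* and *Hoxb9* were lost without *Scx*-/- replicate 2 of kidney (adjusted *p* = 0.0548 and 0.0682), and *Hoxd9* and *Hoxb8* without WT replicate 2 of kidney (adjusted *p* = 0.0530 and 0.0534).

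Loss of *Scx* was then compared with WT within each tissue. None of the 240 *Hox* tests passed an adjusted *p* under 0.05 (edgeR's quasi-likelihood test, lowest adjusted *p* = 0.614), where 0.0914% of all combinations of a gene and a tissue did. An unadjusted *p* under 0.05 was reached by 12 of the 240 with edgeR and 9 with DESeq2, which also called 0 after adjustment. The study itself called a gene at an unadjusted *p* under 0.05 if its log2 fold change was also above 1 or below -1, and by this rule 12 of 240 tests passed with edgeR, against 3.71% of all combinations, and 9 of 240 with DESeq2, the tool the study used, against 3.27%. The 3 libraries of one genotype lay entirely above or below those of the other in 13 of 240, against 7.96% of all combinations. Both held for 8 of 240 (1.72% of all combinations), and 4 of these 8 were *Hoxa5*. The smallest *p* that an exact permutation test of 3 libraries against 3 can give is 0.10.

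By the study's thresholds without overlap, *Hoxa5* was lower in *Scx*-/- mice in 3 tissues and higher in 1, and in bone it met the thresholds as lower with overlap. In bladder, the WT libraries held 35.7, 8.92 and 20.6 CPM and all *Scx*-/- libraries 0 (at least 7.18-fold, log2 fold change -6.26 ± 2.72, adjusted *p* = 0.804). Cartilage showed 96.4, 28.2 and 10.9 CPM in WT and again 0 in all *Scx*-/- libraries (at least 10.1-fold, -6.48 ± 2.75, adjusted *p* = 0.769). Without the cartilage library labelled *Scx*-/- that held *Scx* counts, the log2 fold change was also -6.48 (adjusted *p* = 0.830). In kidney the values were 38.4, 22.7 and 20.8 CPM in WT and 0, 3.07 and 0 CPM in *Scx*-/- libraries (28.9-fold with a 95% counting interval of 5.02 to 1156, -4.60 ± 1.94, adjusted *p* = 0.791). The genotypes did not overlap in any of these tissues, where 6.58% to 10.7% of all genes did not, and the same was true in the opposite direction in muscle. There, WT libraries held 0, 1.15 and 0 CPM and *Scx*-/- libraries 16.6, 22.003 and 10.4 CPM (22.2-fold with a 95% counting interval of 3.76 to 898, 4.47 ± 2.19, adjusted *p* = 0.771). A single count in muscle WT replicate 1 is worth 32.9 CPM, so that its 0 says little and the separation in muscle rests on the other 2 WT libraries. Without it the log2 fold change was 4.45 and no longer met the study's thresholds. Bone had 10 counts of *Hoxa5*, all in WT replicate 3 (-5.71 ± 2.72, adjusted *p* = 0.636), and in lung the genotypes overlapped.

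**Figure D5:**
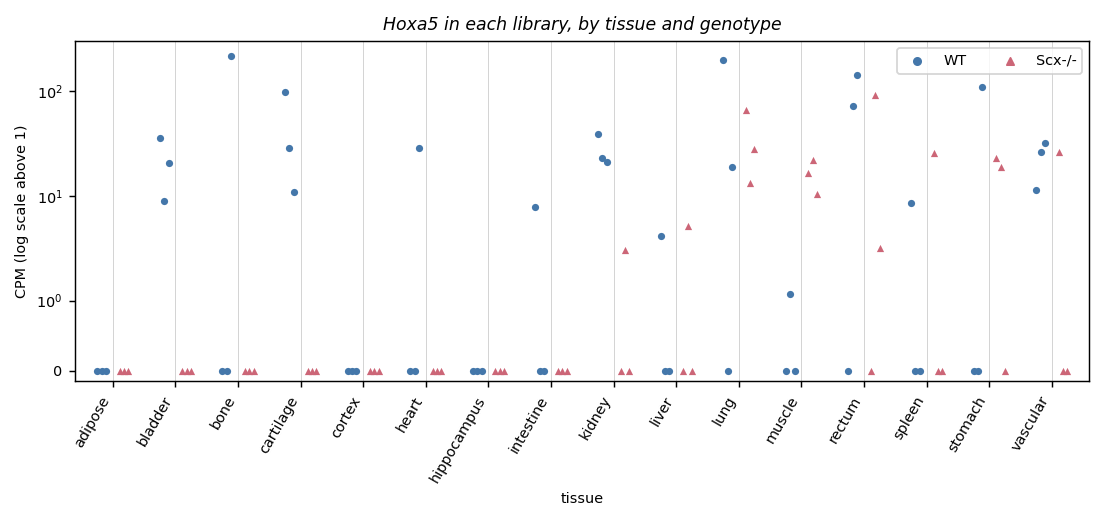
CPM of *Hoxa5* (log scale above 1) in each library, by tissue, with circles for WT and triangles for *Scx*-/- libraries. The *Scx*-/- libraries lie below the WT libraries in bladder, cartilage and kidney and above them in muscle, and no adjusted *p* of these differences is below 0.769.

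Of 22 lists of cell type markers, the summed level lay apart between genotypes in 8 in bladder, 4 in muscle, 2 in kidney and 1 in cartilage. Of all single genes tested, 8.74%, 8.22%, 10.7% and 6.58% lay apart in these tissues, a share that the lists did not exceed in kidney and cartilage. In bladder, 5 fibroblast genes summed to 31772 to 45394 CPM in WT and 19041 to 23020 CPM in *Scx*-/- libraries, and 5 urothelium genes to 4544 to 7655 CPM in WT and 7780 to 9358 CPM in *Scx*-/- libraries. In muscle, the 5 fibroblast genes summed to 10227 to 15589 CPM in WT and 4977 to 7873 CPM in *Scx*-/- libraries. Of the markers, *Ucp1* of brown fat, *Hbb-bs* of red cells and *Fmod* of tendon were lower in *Scx*-/- muscle (log2 fold changes -8.97, -9.60 and -4.28, adjusted *p* = 2.41e-05, 1.27e-06 and 0.0322). The brown adipocyte list as a whole overlapped there, and so did the red cell list (148 to 604 CPM in WT and 224 to 1671 CPM in *Scx*-/- libraries). In kidney, 5 tubule genes summed to 23710 to 33179 CPM in WT and 18145 to 20472 CPM in *Scx*-/- libraries. In cartilage, 5 pancreatic acinar genes summed to 247 to 721 CPM in WT and 1563 to 1877 CPM in *Scx*-/- libraries, and fibroblast genes overlapped. *Ctrb1*, *Hba-a1* and *Ucp1* changed there (log2 fold changes 2.10, 1.76 and -4.18, each with an adjusted *p* of 0.0470). The lists of *Hba-a1* and *Ucp1*, those of red cells and brown adipocytes, overlapped as a whole in cartilage. The part of these cells in the *Hoxa5* values was not tested.

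Over all tissues together, with tissue as a covariate, 0 of 34 *Hox* genes differed between genotypes at an adjusted *p* under 0.05, against 0.485% of all genes. By an unadjusted *p* under 0.05 the count was 1 of 34, against 8.13% of all genes. This was *Hoxa5* (log2 fold change -1.32 ± 0.42, adjusted *p* = 0.139), and without WT replicate 2 of every tissue it had an adjusted *p* of 0.0248 (-1.77). Without the cartilage library with *Scx* counts, a fit added after the data were seen, the adjusted *p* was 0.179 (-1.27). The difference between genotypes did not vary detectably between tissues for any of 21 *Hox* genes tested (0.0669% of all genes, lowest adjusted *p* = 0.811, that of *Hoxa5*, and 0 of 21 with an unadjusted *p* under 0.05). In fits chosen after the data were seen, which set muscle against each of the 3 tissues with the opposite direction, the *Hoxa5* differences differed by a log2 value of 10.65 ± 3.23 from bladder (adjusted *p* = 0.399), 11.38 ± 3.45 from cartilage (adjusted *p* = 0.835, and 0.766 without that library) and 9.11 ± 2.78 from kidney (adjusted *p* = 0.280).

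The other 4 tests that met the study's thresholds without overlap concerned *Hoxd10*, *Hoxc5* and *Hoxb3*. *Hoxd10* was at 32.2, 204 and 100 CPM in WT rectum and at 0, 4.33 and 0 CPM in *Scx*-/- rectum (51.6-fold, 95% counting interval 8.56 to 2108, adjusted *p* = 0.706). Its direction was the opposite in muscle, with 0 in all WT libraries and 21.4, 2.59 and 10.4 CPM in *Scx*-/- libraries (at least 5.36-fold, adjusted *p* = 0.771). *Hoxc5*, whose 3-library values in muscle were 0 in WT and 23.7, 5.18 and 9.23 CPM in *Scx*-/- mice (at least 5.91-fold), has the same adjusted *p* of 0.771. Both also rest on the other 2 WT libraries of muscle, and without WT replicate 1 *Hoxc5* still met the study's thresholds and *Hoxd10* did not. *Hoxb3*, a gene of the hindbrain and neck, was at 6.80, 0 and 0 CPM in WT bladder and 24.2, 18.7 and 65.8 CPM in *Scx*-/- bladder (12.996-fold, adjusted *p* = 0.804), and 52.9% of its exonic bases are shared with the antisense gene *Hoxb3os*.

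In rectum the abundant members overlapped between genotypes. *Hoxb13* had a log2 fold change of -0.999 ± 0.59 (adjusted *p* = 0.706) and *Hoxd13* of -0.26 ± 0.88 (adjusted *p* = 0.966). *Scx*-/- replicate 1 held the lowest level of both, at 12.7 and 0 CPM. It also had the lowest colon epithelium markers (88.9 CPM, against 988 to 3343 CPM in the other 5 rectum libraries), the lowest vessel wall markers (1601 CPM, against 10305 to 14158 CPM) and the highest stratified epithelium and fibroblast markers (14166 CPM, and 28916 CPM against 11295 to 17241 CPM). *Krt5*, a keratin of basal epidermis, *Krt14* and *Krt1* were at 0 in WT rectum. The *Scx*-/- rectum libraries as a group lay apart from WT in 5 of 22 marker lists, where 8.11% of all single genes did. Colon epithelium markers summed to 88.9 to 1882 CPM in *Scx*-/- and 2607 to 3343 CPM in WT libraries. Vessel wall markers summed to 1601 to 11292 against 12720 to 14158 CPM, and skeletal muscle markers to 5031 to 7492 against 202 to 3255 CPM. Whether the cells sampled account for the *Hox* level of *Scx*-/- replicate 1, or for the *Hoxd10* difference in rectum, was not tested.

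Genes that act with or on *Hox* genes were counted in 8 lists. The TALE cofactors, homeodomain partners that bind DNA together with Hox proteins, differed between tissues in 8 of 8 genes tested, where 53.9% of all genes did. *Meis1* was higher in bladder than kidney (log2 fold change 2.85 ± 0.44, adjusted *p* = 1.78e-09). *Pknox2* was higher in muscle than heart (5.98 ± 1.25, adjusted *p* = 0.000118). Of the ParaHox genes, relatives of the *Hox* clusters, both genes tested differed between tissues, again against 53.9% of all genes. *Cdx1*, an intestinal epithelial factor that activates *Hox* genes in the embryo, was higher in rectum than stomach (8.09 ± 0.88, adjusted *p* = 1.86e-17) and in intestine than stomach (6.54 ± 1.36, adjusted *p* = 8.48e-05), and *Cdx2* in intestine than stomach (5.99 ± 1.59, adjusted *p* = 0.00531). Between rectum and intestine neither passed the threshold, although both had an unadjusted *p* under 0.05.

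Of non-coding genes within the clusters, 4 of 10 tested differed between tissues (53.9% of all genes), namely *Hotairm1*, *Hoxa11os*, *Hoxb5os* and *Mira*. *Hoxa11os* was higher in bladder than kidney (2.87 ± 1.07, adjusted *p* = 0.0458), as *Hoxa11* was, and *Hoxb5os* was lower (-3.61 ± 1.27, adjusted *p* = 0.0313), as *Hoxb5* was, and without the strand of the reads those from bases that a gene shares with its antisense partner cannot be told apart. *Hoxa11os* was also higher in rectum than stomach (6.18 ± 1.35) and than intestine (6.80 ± 1.83), with 95 counts in rectum where *Hoxa11* had 1. Among transcription factors that mark body regions outside the clusters, 22 of 26 differed between tissues (53.9% of all genes). Of these, *Foxf1* of visceral mesoderm and *Pitx1* of the hindlimb field were higher in bladder than kidney (9.27 ± 0.84 and 8.48 ± 1.07), *Pax8*, a kidney factor, was lower (-8.12 ± 1.22), and *Barx1*, a factor of stomach mesenchyme, was lower in rectum than stomach (-7.60 ± 1.52). Retinoid signaling genes, which set *Hox* borders in the embryo, differed between tissues in 12 of 15, Polycomb genes, which silence *Hox* clusters, in 9 of 20, Trithorax genes and other antagonists of Polycomb in 3 of 11, and homeobox genes linked to the clusters in 0 of 5 (0 with an unadjusted *p* under 0.05), all to be read against the same 53.9%. Between genotypes, 1 of 988 tests over the 8 lists passed, a share near the 0.0914% of all combinations of a gene and a tissue. It was *Aldh1a1*, a retinoic acid synthesizing enzyme, which was lower in *Scx*-/- liver (-1.56 ± 0.39, adjusted *p* = 0.0197).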

How the data were processed

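RNA of 16 tissues from WT and *Scx*-/- mice was sequenced by MuSeq. The values deposited by the authors are raw counts per gene symbol, made with Bowtie2 and HTSeq on mm10 per the submitters' processing notes, with versions, strand setting and molecular identifiers not given in the sources used here. Libraries held 11244 to 1658192 counts, and replicates differed beyond sampling noise (lowest chi-square per degree of freedom 6.93 over 96 pairs). CPM was computed on library totals. Tests were made with edgeR 4.0.16 and limma 3.58.1 in R 4.3.3 (TMM scaling, robust quasi-likelihood fits, genes at 0 in all libraries removed, filterByExpr genes for the tissue by genotype term), adjusted by Benjamini-Hochberg over all genes of a fit and tested on simulated data. Tables and figures were made with Python 3.11.15, numpy 2.4.6, pandas 2.3.3, scipy 1.17.1 and matplotlib 3.10.9.

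The *Hox* genes, the 8 lists and the marker lists were chosen with earlier results of these data known. Genes were named if they were among the 5 highest members in a tissue, were called between genotypes or passed the study's thresholds without overlap, were among up to 4 called members per direction in a tissue pair, or, in the other lists, were called between genotypes or among up to 3 of the highest in a tissue. *Hoxd13* and *Scx* were always named. Other list members and members given as examples were chosen after their values were seen. Alternatives were RLE scaling, library totals, another filter, DESeq2 1.42.0, a joint fit, a replicate block, and leaving out replicates, shallow libraries or the adipose and vascular samples. Fits within 1 genotype, of *Hoxa5* in muscle against 3 tissues, and without the *Scx*-/- library that held *Scx* counts were added after seeing the data. Homeoboxes, exons and coordinates came from GENCODE M21 (GRCm38). Protein sequences were not used here, and some values of single genes are not reported here.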

Additional observations from a re-analysis of the deposited data

Results flagged for a closer look

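Among the 15 tissues with *Hox* counts, the summed *Hox* CPM of 1 library stood far from the other 5 in 3 tissues, by Dixon's test at the 95% level, where chance gives about 1 in 20. *Scx*-/- replicate 3 of adipose held 34.1 CPM, against 3.00 CPM in the next library, and 16 of its *Hox* counts were *Hoxb4*. WT replicate 3 of bone held 658 CPM, against 218 CPM in the next, in a library of 47131 counts. WT replicate 2 of heart held 178 CPM, against 39.1 CPM in the next, in the shallowest library of the series (11244 counts).

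The *Scx*-/- and WT libraries of 2 genes did not overlap in several tissues, with opposite directions. *Hoxa5* was higher in *Scx*-/- muscle and lower in bladder, cartilage and kidney, and the edgeR test of the tissue by genotype term gave an adjusted *p* of 0.811. *Hoxd10* was higher in *Scx*-/- kidney and muscle and lower in rectum, with an adjusted *p* of 1.0 for the same term.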

How the results depend on the processing

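Depth limited the values, since 1 count was worth 0.603 to 88.9 CPM and most members had few counts per library. No reported *Hox* difference changed direction under any alternative run. Called between genotypes by adjusted *p* were 0 genes under every alternative, and the tissue by genotype term likewise gave 0. Over all tissues together the count was 0, and 0 to 1 with single replicates left out, *Hoxa5* passing without WT replicate 2. At the study's thresholds the 12 tests became 1 with filterByExpr, which left only 1 of the 12 in the test, 3 with the replicate block, 9 with DESeq2, 9 without shallow libraries, and 5 to 10 with single replicates left out. Without WT replicate 2 or WT replicate 3 they were 7, and without *Scx*-/- replicate 1 they were 5. The 9 tests with DESeq2 were not all among the 12, with 3 in bladder in place of 2, 2 in muscle in place of 3, and 0 in bone and lung. The 26 genes that differed between tissues became 21 to 27, the 21 with filterByExpr being all that were tested. The 22 differences in tissue pairs became 20 to 27 under other tools, filters, scalings and without shallow libraries, and 15 to 20 with single replicates left out. In fits added after the data were seen they were 14 in WT and 7 in *Scx*-/- libraries alone, with 6 in place of 12 libraries.

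Against TMM, the median log2 fold change of all genes moved by up to 0.54 in the tissue pairs and 0.42 between genotypes with library totals. Summed *Hox* CPM moved by more than the spread between libraries only in muscle, from 263 to 412 on TMM-scaled totals, above bladder, with rectum first and kidney second throughout. The number of genes seen moved in 6 tissues with a minimum of 3 counts, in 12 with 10, and in 4 after thinning to 629368 counts. Without the cartilage *Scx*-/- library that held *Scx* counts, left out after the data were seen, the counts were 0, 12, 22, 0, 26 and 0 between genotypes, at the study's thresholds, in pairs, over all tissues, between tissues and for the tissue by genotype term. Other single libraries were not left out of the tests over all tissues.

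Replicate numbers did not pair the samples, since in 0 of 16 tissues was the correlation of same-numbered libraries above 0.1 for every number (lowest -0.14). With the replicate block, 17 of the 22 pair differences and 23 of the 26 tissue differences were called, and *Hoxa5* over all tissues had an adjusted *p* of 0.704 (-1.15).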
